A study of Mus musculus with 5 samples.

Results

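The fucosyltransferases described here are the 10 mouse genes Fut1, Fut2, Fut4, Fut7, Fut8, Fut9, Fut10, Fut11, Pofut1 and Pofut2, measured by 25 of the 45037 probe sets of an expression array. A probe set, a group of short probes on the array that reads one transcript, was taken for a gene when the platform annotation gave that gene as its only symbol. Fut1 and Fut7 had 1 probe set, Fut2 and Fut4 had 2, Fut8, Fut9, Fut10, Fut11 and Pofut1 had 3, and Pofut2 had 4. The arrays were made from EpCAM-selected epithelial cells of prostate tumours, 1 array per mouse, all mice on a C57BL/6 background. The 2 nTKO mice (31.43 and 16 weeks old) carried floxed alleles of Pygo2, a co-activator of beta-catenin, on top of the alleles of the nDKO mice. The 3 nDKO mice (15.86, 10.71 and 10.71 weeks old) carried floxed alleles that include Smad4, which the nTKO mice share. Both genotypes are labelled with Probasin, a promoter active in prostate epithelium, so cells in which it is silent would keep the alleles. The family was selected on the genotype difference of Fut4 and Fut9 in these same arrays, the other members following by name. Every difference between the genotypes below is therefore a description and has no test of its own.

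Fucosyltransferases move fucose from the donor GDP-fucose onto sugars or proteins. Fut1 and Fut2 fucosylate a terminal galactose and make the H antigen, Fut4, Fut7 and Fut9 fucosylate N-acetylglucosamine and make Lewis X and its sialylated form, the sugar that selectins bind, and Fut8 adds fucose to the core of N-glycans. Pofut1 and Pofut2 put fucose directly onto protein, Pofut1 on the epidermal growth factor-like repeats of Notch receptors and Pofut2 on thrombospondin repeats. Changes in Lewis antigens and in core fucose are a known feature of epithelial tumours, the prostate among them.

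Upstream sequence is shown for Fut4, which had a lower signal in nTKO cells, and for Fut8, which had a higher mean there. Each run is the 250 bases before an annotated start, on the strand of the gene, from RefSeq on GRCm38.p6. Capitals mark matches on either strand to CTTTGNT, where N is any base. This is a loose form of the letters read by the TCF and LEF factors that beta-catenin binds. A match, such as ACCAAAG in the Fut8 window, need not be a site for them, and binding was not tested. The region of Fut4 is chr9:14752123-14752372 on the minus strand, and that of Fut8, at 1 of its 4 annotated starts, is chr12:77238489-77238738 on the plus strand.
Fut4: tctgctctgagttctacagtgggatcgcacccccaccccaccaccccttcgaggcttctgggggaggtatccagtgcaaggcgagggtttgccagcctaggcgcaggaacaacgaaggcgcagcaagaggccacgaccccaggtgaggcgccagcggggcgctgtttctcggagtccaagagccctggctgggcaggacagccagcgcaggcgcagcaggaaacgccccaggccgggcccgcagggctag
Fut8: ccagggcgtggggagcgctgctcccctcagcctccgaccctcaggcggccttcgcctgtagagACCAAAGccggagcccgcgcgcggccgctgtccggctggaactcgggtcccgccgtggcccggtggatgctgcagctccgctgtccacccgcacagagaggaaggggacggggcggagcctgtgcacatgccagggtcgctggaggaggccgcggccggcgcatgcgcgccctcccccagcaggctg
The letters were absent from the Fut4 window and present once in the Fut8 window. Of 11 such windows for 7 of the genes, 3 held a match, 2 of the 4 windows of Fut8 and 1 of the 2 of Fut7, and 16.0% of all 32851 windows in the table did so. The Fut8 window shown is one of those with a match. No window was at hand for Fut2, Fut9 and Fut10, so letters and direction of difference cannot be compared over the family.

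The deposited values are log2 signals, and a difference of 1 is a doubling. Array medians lay between 4.94 and 4.98, and 17 of the 25 probe sets were above the median on all 5 arrays, while 6 lay below it on all 5. Pygo2 was at 7.30 and 6.35 in nTKO cells, against 8.65, 8.62 and 8.72 in nDKO cells. Epcam was at 13.24 and 13.41 in nTKO cells and at 12.94, 13.48 and 13.35 in nDKO cells, and all 6 epithelial markers were above the median on every array. The arrays of nTKO 1 and nDKO 1, the oldest mouse of each genotype, stand apart from the other arrays by squamous keratins, with Krt10 at 13.04 in nTKO 1 and 6.90 in nTKO 2, against 13.03 in nDKO 1 and 6.93 and 6.71 in the other nDKO mice. In RNA from a mixed suspension, fewer cells of a type and less RNA per cell cannot be told apart.

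**Figure D1:**
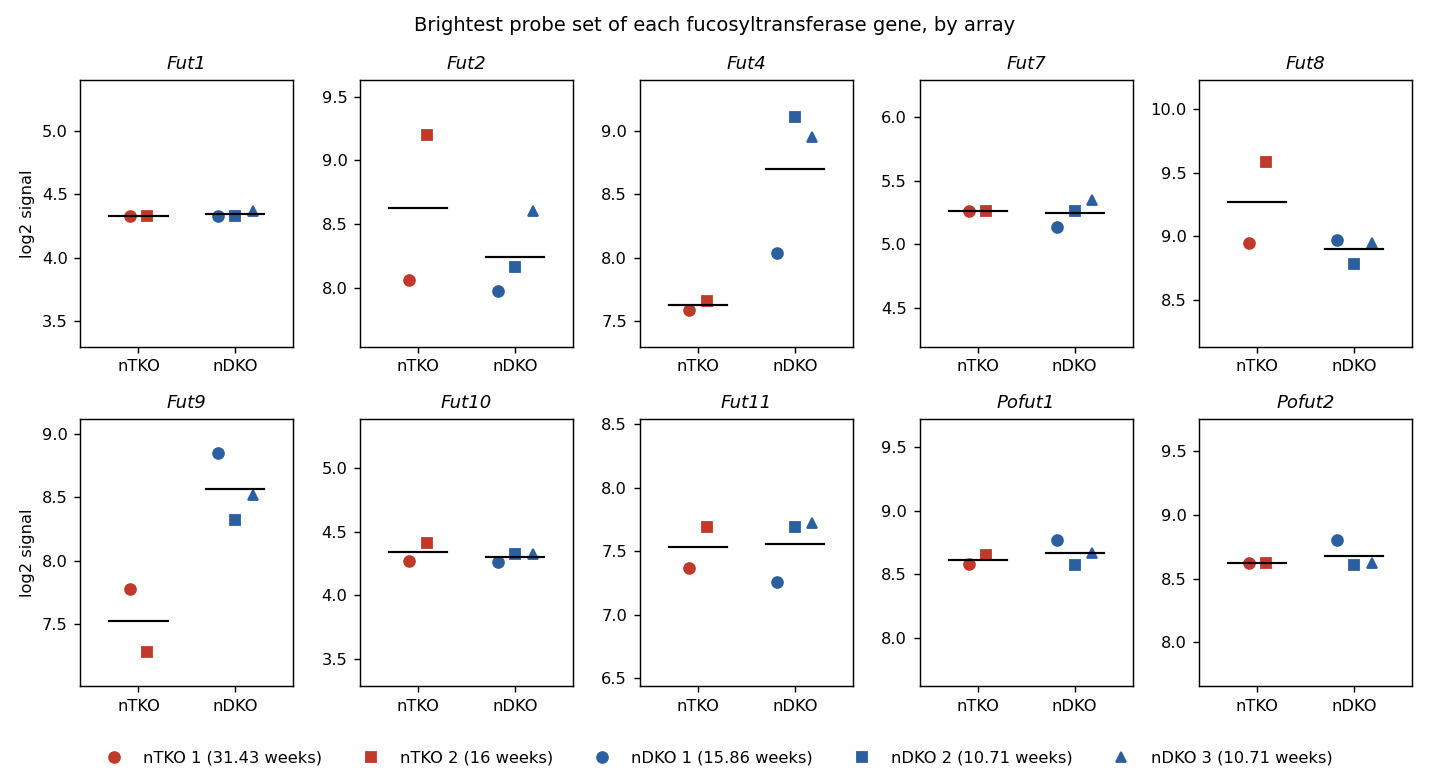
Signal on the log2 scale of the brightest probe set of each of the 10 genes (vertical axes, each spanning the same width), with nTKO arrays on the left and nDKO arrays on the right of each panel; symbols are mice and the black line is the group mean. The groups are apart for Fut4, with nTKO arrays at 7.59 to 7.66 and nDKO arrays at 8.04 to 9.11, and for Fut9, with nTKO arrays at 7.28 to 7.78 and nDKO arrays at 8.32 to 8.85, and Fut2 and Fut8 are high in nTKO 2.

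The Lewis X enzymes Fut4 and Fut9 had lower signals in nTKO cells at all 5 of their probe sets, with no overlap between the genotypes. Fut4, which makes Lewis X on many glycans and is well known from myeloid cells, had a signal of 7.59 and 7.66 in nTKO cells, against 8.04, 9.11 and 8.95 in nDKO cells (probe set 1455843_at). The 2 nTKO mice were close to each other, nDKO 1 lay nearer to them than to the other nDKO mice, and the groups did not overlap. The mean was 7.63 ± 0.05 in nTKO cells (SD, n = 2) and 8.70 ± 0.58 in nDKO cells (SD, n = 3), a log2 fold change of -1.08 (SE 0.37) that leaves 47.5% of the nDKO signal. Its second probe set, 1450834_at, read 4.60 and 4.99 in nTKO cells and 5.03, 5.44 and 5.51 in nDKO cells, a log2 fold change of -0.53 (SE 0.21). There nTKO 2 and nDKO 1 differed by only 0.04, so the gap between the groups was narrow.

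Fut9, the enzyme that makes Lewis X in brain and embryo, had a signal of 7.78 and 7.28 in nTKO cells, against 8.85, 8.32 and 8.52 in nDKO cells (probe set 1435308_at). The highest value came from nDKO 1 and the lowest from nTKO 2, 2 mice of nearly the same age. The means were 7.53 ± 0.35 in nTKO cells (SD, n = 2) and 8.56 ± 0.27 in nDKO cells (SD, n = 3), and the log2 fold change was -1.03 (SE 0.24), which leaves 48.9% of the nDKO signal. At 1457409_at Fut9 read 5.03 and 5.15 in nTKO cells and 5.31, 5.46 and 5.18 in nDKO cells (log2 fold change -0.23, SE 0.10). At 1450771_at, below the array median throughout, it read 2.68 and 2.88 in nTKO cells and 3.18, 3.02 and 3.02 in nDKO cells (-0.29, SE 0.09). The probe sets of each gene thus had the same sign and differed in size, and where along the transcripts they lie is not known here.

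Fut4 and Fut9 did not share an order of the mice. At both Fut4 probe sets the signal was lower in the older mouse for every pair of mice that differ in age, from 31.43 weeks (nTKO 1) through 16 weeks (nTKO 2) and 15.86 weeks (nDKO 1) to the youngest pair, nDKO 2 and nDKO 3. That order held for 1.14% of all probe sets, and it includes the order of the genotypes. With log2 age as a covariate the Fut4 difference was -0.56 (SE 0.51) at 1455843_at and -0.08 (SE 0.14) at 1450834_at, and between the mice of like age, nTKO 2 minus nDKO 1, it was -0.38 and -0.04. For Fut9 the age settings went the other way at 1435308_at, to -1.55 (SE 0.15) with the covariate and -1.57 between the mice of like age. At 1457409_at the covariate gave a smaller difference, -0.15 (SE 0.17), and at 1450771_at it gave -0.25 (SE 0.15). With both nTKO mice older than every nDKO mouse, age and genotype cannot be told apart, and nDKO 1 is also the squamous nDKO array.

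**Figure D2:**
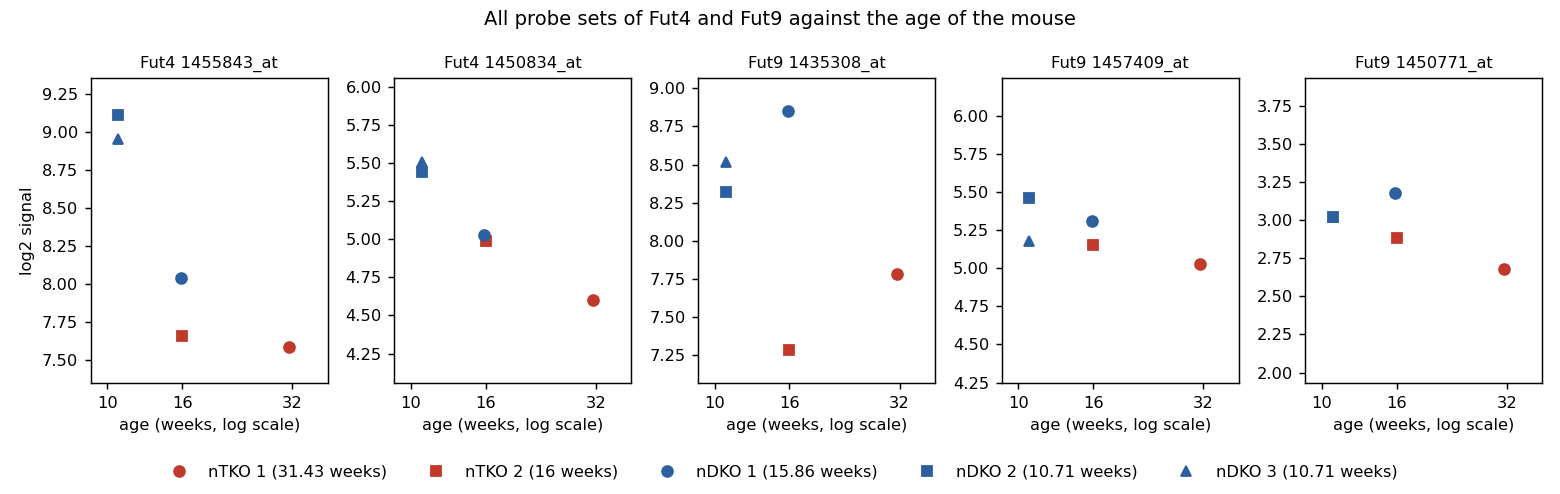
Log2 signal (vertical axes, each spanning 2 units) of the 2 probe sets of Fut4 and the 3 of Fut9 against the age of the mouse in weeks on a log scale; red symbols are nTKO and blue symbols nDKO mice. Both Fut4 panels descend with age, while at Fut9 1435308_at the nDKO mouse of 15.86 weeks (8.85) lies far above the nTKO mouse of 16 weeks (7.28).

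Because the genotypes did not overlap, leaving out mice could change the size of the Fut4 and Fut9 differences but not their sign. The Fut4 difference at 1455843_at lay between -1.41 (without nDKO 1) and -0.87 (without nDKO 2), and at 1450834_at it was -0.34 without nTKO 1 and -0.73 without nTKO 2. For Fut9 at 1435308_at it was -1.28 without nTKO 1 and -0.78 without nTKO 2. Without nDKO 1 and nTKO 1 together, which leaves nTKO 2 against 2 nDKO mice, Fut4 was at -1.37 and Fut9 at -1.14.

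The 60 measured markers of cells other than luminal epithelium stand in 11 lists, among them basal epithelium, squamous epithelium and seminal vesicle. The genotypes overlapped for 53 of the 60. Both nTKO mice were below every nDKO mouse for 2, beside 4.71% of all genes, and above for 5, beside 8.13% of all genes. The 2 lower ones, picked after their values were seen, were the macrophage gene C1qa, at 7.46 and 7.27 in nTKO cells against 8.20, 7.64 and 9.09 in nDKO cells, and the basal keratin Krt15, at 13.29 and 12.77 in nTKO cells against 13.68, 13.41 and 13.52 in nDKO cells. The 5 higher ones, Cd2, Cd79a, Tek, Col3a1 and Tpsb2, lay below the array median on every array. Neutrophils carry Fut4 and Fut7 and wear Lewis X on their surface. The summed linear signal of 8 measured neutrophil markers of 10 listed was 30770 and 9337 in nTKO cells and 14030 to 18250 in nDKO cells, highest in nTKO 1, the array on which Fut4 was lowest. Ltf was the brightest of the 8 on every array. Its log2 signal was 13.91 and 13.07 in nTKO cells and 13.92, 13.65 and 13.48 in nDKO cells, so nTKO 1 and nDKO 1 were alike. S100a8 and S100a9, picked after their values were seen, were highest in nTKO 1. S100a8 read 12.79 and 8.30 in nTKO cells and 10.53, 9.66 and 10.37 in nDKO cells. S100a9 read 12.94 and 7.93 in nTKO cells and 10.01, 9.26 and 9.99 in nDKO cells. Macrophage markers (8 of 8 measured) summed to 3317 and 2644 in nTKO cells and to 2017 to 5699 in nDKO cells. Basal markers (5 of 5 measured) summed to 19720 and 10030 in nTKO cells and to 15590 to 30690 in nDKO cells. The highest sum was in nDKO 1 and the lowest in nTKO 2, as for Fut9 at 1435308_at, but nTKO 1 differed. Its basal sum was above those of nDKO 2 and nDKO 3 (15640 and 15590), while its Fut9 signal, 7.78, was below theirs (8.32 and 8.52). The summed signal of 5 seminal vesicle transcripts was 29520 and 24880 in nTKO cells and 8484 to 53350 in nDKO cells. Of the 11 sums, 8 overlapped between the genotypes. The other 3 were higher in both nTKO mice, for endothelium at 82.67 and 73.65 in nTKO cells against 70.16 to 71.15 in nDKO cells, for B cells at 48.22 and 48.84 in nTKO cells against 44.30 to 47.72 in nDKO cells, and for mast cells at 63.71 and 63.97 in nTKO cells against 57.58 to 63.37 in nDKO cells. Of the 12 markers in those 3 lists, 11 lay below the array median on every array. No marker can be at 0 on this log2 scale, and the part of such cells in the differences was not tested.

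Fut7, the other Lewis enzyme and the one that makes sialyl Lewis X in leukocytes, was level, at 5.26 and 5.26 in nTKO cells and 5.14, 5.26 and 5.35 in nDKO cells (log2 fold change 0.01, SE 0.08). Fut10 and Fut11, more distant relatives, were near level as well. The 3 probe sets of Fut10 lay below the array median on all arrays and had log2 fold changes of 0.04, 0.11 and 0.08. Fut7 lay little above the array medians of 4.94 to 4.98, and probe sets as dim as those of Fut7 and Fut10 may not respond to a change. Fut11 at 1434123_at read 7.37 and 7.69 in nTKO cells and 7.26, 7.69 and 7.72 in nDKO cells, low on the 2 squamous arrays and almost equal on the other 3. Its difference was -0.03 (SE 0.20), and 0.39 (SE 0.15) with log2 age, which cannot be told apart from genotype, as a covariate. A second Fut11 probe set, 1437748_at, was lower in both nTKO mice by a small margin, at 6.48 and 6.54 against 6.61, 6.61 and 6.66 in nDKO cells (-0.12, SE 0.05). The third, 1431066_at, was at 0.07.

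The H-antigen enzymes Fut1 and Fut2 did not separate the genotypes. Fut2, which makes H antigen in secretory epithelium, was at 8.06 and 9.20 in nTKO cells and at 7.97, 8.16 and 8.60 in nDKO cells (1434862_at; log2 fold change 0.39, SE 0.42). The second probe set, 1450246_at, read 5.23 and 5.94 in nTKO cells and 5.24, 5.41 and 5.88 in nDKO cells (0.08, SE 0.31). Both probe sets were highest in nTKO 2, next in nDKO 3, and lowest on the 2 squamous arrays, nTKO 1 and nDKO 1. The sign hung on nTKO 2, as the difference at 1434862_at was -0.18 without it and 0.96 without nTKO 1. The difference was 1.29 (SE 0.28) with log2 age as a covariate and 1.23 between the mice of like age. Age and genotype cannot be told apart, and the mice of like age gave the highest signal (nTKO 2) and the lowest (nDKO 1) at this probe set. The summed signal of the 6 epithelial markers was low on the 2 squamous arrays, at 41380 in nTKO 1 and 53880 in nTKO 2, against 41100 in nDKO 1 and 51060 to 52650 in the other nDKO mice. Fut1 lay below the array median, at 4.33 and 4.33 in nTKO cells and 4.33, 4.33 and 4.37 in nDKO cells, and a dim probe set may not respond to a change.

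Fut8, the core fucosyltransferase, had higher means in nTKO cells at 2 of its 3 probe sets. At 1460319_at it read 8.95 and 9.58 in nTKO cells and 8.97, 8.78 and 8.95 in nDKO cells (log2 fold change 0.37, SE 0.21). That difference came from nTKO 2, and was 0.05 without it and 0.68 without nTKO 1. At 1443656_at both nTKO mice, at 5.58 and 5.68, were above the nDKO mice, at 5.43, 5.25 and 5.52 (0.23, SE 0.10). The value stayed between 0.16 and 0.30 over 15 other settings, some of which cannot change it. The third probe set, 1456367_at, was dim, with 2.93 on 4 of the 5 arrays.

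The protein O-fucosyltransferases differed little between the genotypes. Pofut1 at 1443881_at was 8.58 and 8.65 in nTKO cells and 8.77, 8.57 and 8.67 in nDKO cells (log2 fold change -0.06, SE 0.08), and its other probe sets were at 0.06 and -0.14. The 4 probe sets of Pofut2 had log2 fold changes between -0.06 and 0.16. One of them, 1448384_at, was higher in both nTKO mice, at 7.30 and 7.22 against 7.12, 6.98 and 7.19 in nDKO cells. A range of 0.20 or less over all 5 arrays was seen for Pofut1 at 1443881_at and 1456323_at. It was also seen for both Pofut2 probe sets with the suffix x, which may also bind related transcripts. Pofut1 at 1450137_at ranged over 0.71, from 4.82 in nDKO 1 to 5.53 in nDKO 3.

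**Figure D3:**
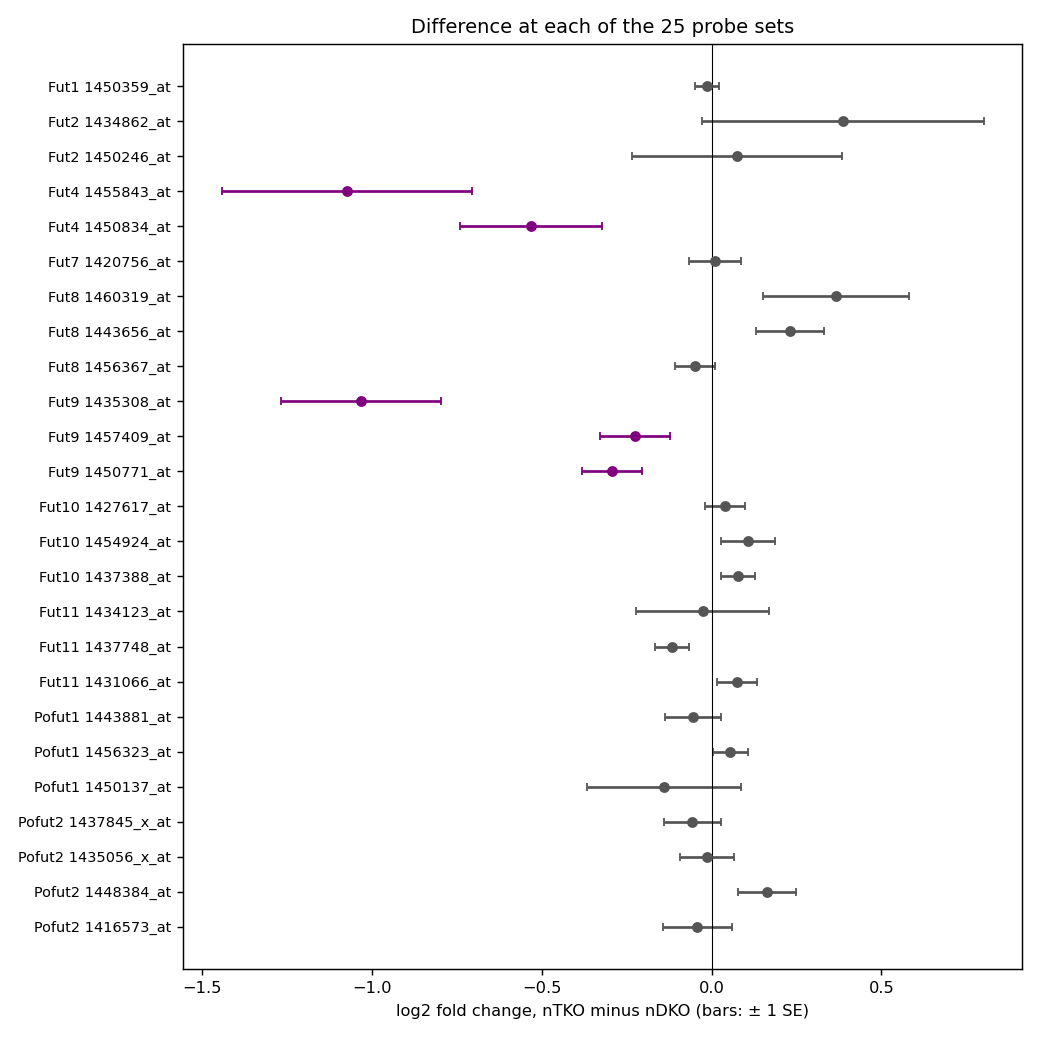
Log2 fold change, nTKO minus nDKO, at each of the 25 probe sets, with bars of 1 SE from the fit over all probe sets; Fut4 and Fut9 are in purple. The 5 purple points lie between -1.08 and -0.23, and the 20 others between -0.14 and 0.39.

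Over the family, 14 of 25 probe sets had a lower mean in nTKO cells and 11 a higher one, beside 41.8% of all probe sets with a lower mean. The median log2 fold change was -0.01 over the family and 0.02 over all probe sets. In 6 probe sets both nTKO mice were below every nDKO mouse, 5 of them those of Fut4 and Fut9, and in 2 both were above. Among all probe sets these shares were 5.17% and 7.02%, and a log2 fold change of -1 or lower was found in 0.178%, 80 probe sets of which 2 are members. Because the genotype difference of Fut4 and Fut9 led to the choice of the family, nothing is read from these shares. With limma over all 45037 probe sets, 0 had a Benjamini-Hochberg adjusted p under 0.05 (0% of the table, smallest 0.799), and 1710 had an unadjusted p under 0.05. No member therefore passed the test across the array.

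**Figure D4:**
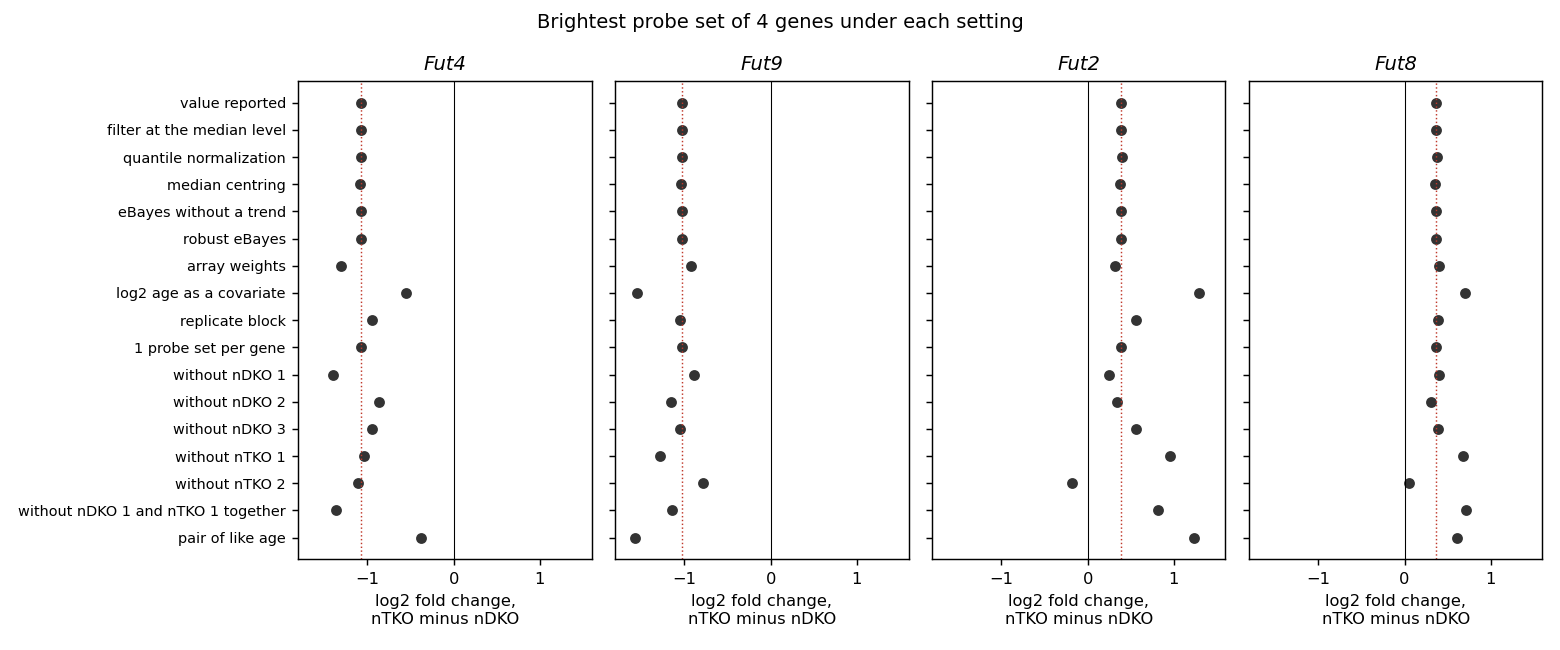
Log2 fold change, nTKO minus nDKO, of the brightest probe set of Fut4, Fut9, Fut2 and Fut8 (horizontal axes) as reported and under 16 other settings (rows); the dotted line is the value reported. Fut4 ranges from -1.41 to -0.38 and Fut9 from -1.57 to -0.78, Fut2 crosses 0 without nTKO 2, and Fut8 ranges from 0.05 to 0.72. Settings that alter only the variance estimate or the choice of probe sets repeat the value reported.

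The genes most like Fut4 and Fut9 over the 5 arrays were found by the mean absolute difference between their log2 signals, each less its own mean, among 16332 genes. Nearest to Fut4 were Mroh4 (0.14), Slfn2 (0.16), the kinase Sgk1 (0.20) and the spindle protein Misp (0.20), where the median gene was 0.62 away. Slfn2, a Schlafen family gene, read 8.83 and 9.34 in nTKO cells and 9.43, 10.34 and 10.11 in nDKO cells. As for Fut4, nDKO 1 lay below the other nDKO mice. Nearest to Fut9 were the receptor partner Ramp2 (0.09), the adhesion receptor Adgrg2 (0.11), the GABA receptor subunit Gabrp (0.11) and Pcolce, an enhancer of collagen processing (0.14), where the median gene was 0.51 away. Ramp2 read 6.07 and 5.93 in nTKO cells and 7.18, 6.75 and 6.93 in nDKO cells. Fut4 and Fut9 were 0.50 apart from each other, so neither is among the close neighbours of the other.

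The rest of the fucosylation pathway was followed in 77 measured genes of 78 listed, each by its brightest probe set. With limma, 0 passed in either direction. Means were lower in nTKO cells for 35 and higher for 41, beside 38.3% lower among all 18193 genes, and the median log2 fold change was 0.02, against 0.03 over all genes. Both nTKO mice were below every nDKO mouse in 2 of the 77 (4.71% of all genes) and above in 1 (8.13% of all genes).

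On the supply side, 7 of 11 genes for making and moving GDP-fucose had higher means and 4 lower ones (median log2 fold change 0.04). Slc35c1, the transporter that carries GDP-fucose into the Golgi, was at 7.99 and 7.69 in nTKO cells and 7.30, 7.18 and 7.47 in nDKO cells, higher in both nTKO mice (0.52, SE 0.14). Its relative Slc35c2, which acts on the O-fucose of Notch, had the lowest value of the list, at -0.15. Both fucosidases, which remove fucose, had higher means, Fuca1 by 0.32 and Fuca2 by 0.01.

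Partners of the Lewis enzymes were mixed, with 13 of 25 lower and 11 higher (median -0.03). B4galt3, a galactosyltransferase that builds the chain on which Lewis X is made, was at 8.73 and 8.77 in nTKO cells and 9.26, 8.85 and 8.95 in nDKO cells (-0.27, SE 0.14), lower in both nTKO mice. Picked after its value was seen, Gcnt1, the branching enzyme of O-glycans that carry sialyl Lewis X, had the lowest value of the list, at 6.85 and 5.82 in nTKO cells and 7.07, 7.00 and 6.85 in nDKO cells (-0.64, SE 0.34), mostly from nTKO 2. N-glycan branching genes were split, 4 lower and 4 higher (median -0.05). Selectins and their ligands had 3 of 10 lower and 7 higher (median 0.02), with the leukocyte selectin ligand Selplg at 7.58 in nTKO 1 and 5.68 in nTKO 2, against 5.73 to 6.64 in nDKO cells.

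Genes that extend the O-fucose of Notch, with Notch receptors, ligands and targets, had 11 of 21 lower and 10 higher (median -0.01). Notch2 was at 9.10 and 9.26 in nTKO cells and 9.45, 9.35 and 9.40 in nDKO cells (-0.22, SE 0.08), lower in both nTKO mice. Other genes of the list followed the squamous arrays. The ligand Jag1, chosen after its values were seen, was at 10.44 and 8.67 in nTKO cells and 10.99, 9.53 and 9.53 in nDKO cells, and Notch3, chosen likewise, at 8.98 and 8.10 in nTKO cells and 9.72, 8.53 and 8.50 in nDKO cells. Both were highest in nDKO 1 and nTKO 1. On the same arrays Pofut1 ranged over 0.20 at 1443881_at, 0.11 at 1456323_at and 0.71 at 1450137_at.

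**Figure D5:**
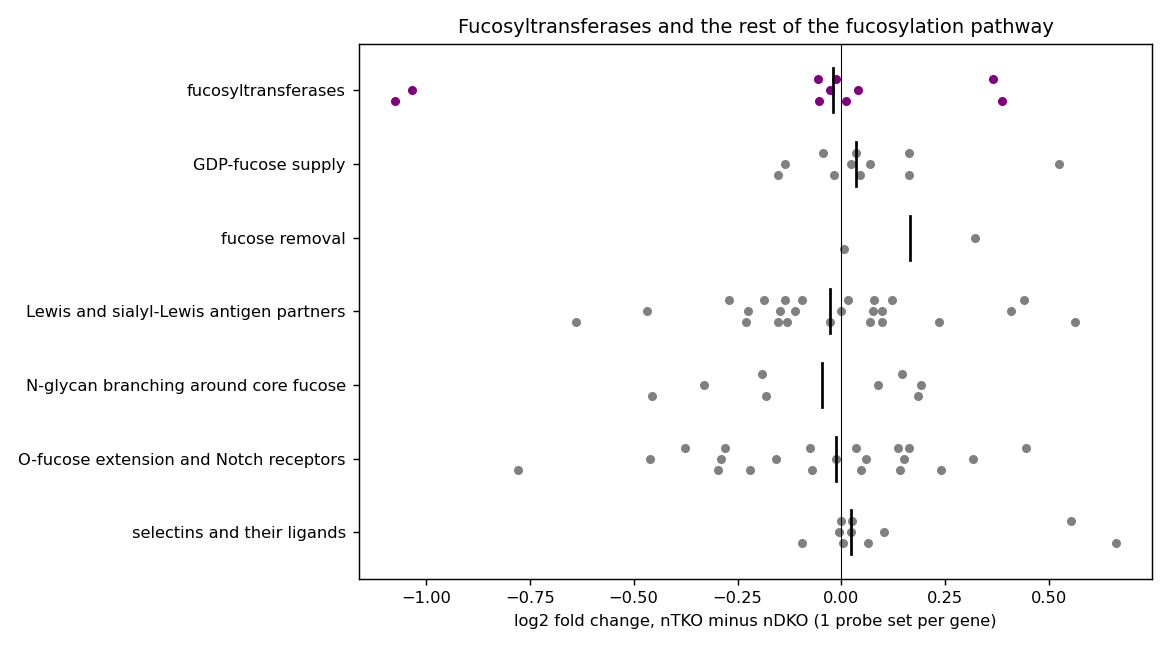
Log2 fold change, nTKO minus nDKO, of the 10 fucosyltransferases (purple) and of the genes of 6 pathway lists (grey), 1 probe set per gene; vertical black bars are list medians and the vertical spread of points within a row carries no value. Fut4 (-1.08) and Fut9 (-1.03) lie left of every pathway gene, the lowest of which is Nrarp at -0.78. The family was selected on this difference of Fut4 and Fut9 and the pathway genes were not, so nothing is read from that place.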

How the data were processed

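Per the labels, tumour cells were isolated on ice with EpCAM beads and total RNA was labelled with biotin. The authors deposited a log2 signal for each probe set on each array, for which the Transcriptome Analysis Console and RMA are named per the submitters' processing notes (no version is given in the sources used here). Because RMA equalises the arrays, a shift common to most genes is invisible. Exact repeats were common: 30.8% of probe sets, and 7 of the 25 members, had 1 value on at least 3 arrays. Of those 7, 3 lay below the array median on all 5 arrays and 4 above it, and the cause was not tested. The number of arrays limits the precision, and nothing was filtered out.

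The comparison of nTKO with nDKO used limma 3.58.1 (R 4.3.3; lmFit, eBayes with an intensity trend, 3 residual degrees of freedom) over all 45037 probe sets, two-sided, and called probe sets at a Benjamini-Hochberg adjusted p below 0.05. The code was tested on simulated data. Of the probe sets, 34945 had 1 gene symbol, 932 several and 9160 none. Members, lists and tests were chosen with earlier results of these data known. Besides all members, genes named are the targeted Pygo2, up to 3 per pathway list with the largest difference among those whose groups do not overlap, and the 4 genes most like Fut4 and Fut9. Epcam, Krt10 and genes said to be picked after their values were seen fall outside that rule. So do Slc35c2, Fuca1, Fuca2, Selplg, Nrarp, Ltf and the 5 markers of other cells named as higher. Same-numbered mice are different animals, so the numbers do not pair them. Some items are not reported here.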

Additional observations from a re-analysis of the deposited data

How the results depend on the processing

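The count of probe sets with a limma adjusted p under 0.05 was 0 under all 15 alternatives, and so was that of pathway genes under the 9 tried for them. These were a filter at the median level (19 of the 25 members pass), quantile normalization, median centring, eBayes without a trend, robust eBayes, array weights, log2 age, a replicate block, 1 probe set per gene and leaving out mice. Of the 25 fucosyltransferase probe sets, 14 had a lower mean in nTKO cells, and 10 to 16 with 1 mouse left out. With 1 probe set per gene, 6 of 10 had a lower mean, a smaller count because fewer probe sets enter. With the replicate block, on the 4 mice whose numbers both genotypes share, the count was 10 of 25, Fut4 was at -0.95, Fut9 at -1.06, and the count of adjusted calls 0. Deviations from the group means correlated at 0.38 for number 1 and 0.31 for number 2 across probe sets, which are not independent. The deviations of the 2 nTKO mice are equal and opposite by construction, so these correlations are not separate. The mice of number 1 also gave the squamous arrays. Chosen after seeing the data, the count of members with both nTKO mice below every nDKO mouse, 6, was 6 to 8 with 1 mouse left out. Leaving out a mouse can only keep or raise that count, so its not falling carries no information. Of 379 member differences under alternatives, 330 stayed within 1 SD between replicates and 49 moved further, among them Fut4 and Fut9 at their brightest probe sets with log2 age (-0.56 and -1.55). The 330 include differences that could not move. The filter, eBayes without a trend, robust eBayes and 1 probe set per gene leave each fold change as it was. Signal above background could not be judged, as no scanner files were used.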
